A study of Mus musculus with 6 samples.

Results

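The TNF ligand and receptor superfamilies were followed in bone marrow mesenchymal stem cells (BMMSCs) after silencing of Tet1 and Tet2. Members were taken by name, as every gene of the expression table whose symbol follows the Tnfsf (ligand) or Tnfrsf (receptor) numbering, except Tnfsf11, Tnfrsf11a and Tnfrsf11b, the genes of the RANKL axis. This gave 28 of 36870 genes, 10 ligands and 18 receptors. The rule uses symbols only and no measured level.

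RNA-seq was performed on mouse BMMSCs of strain C57BL/6, grown as the adherent cells of flushed femoral and tibial marrow. The control group held 3 libraries and the Tet1/Tet2 siRNA-treated group another 3. Treated cells received siRNAs against Tet1 and Tet2, 2 enzymes that oxidise methylated cytosine in DNA, and control cells a non-targeting siRNA according to the labels, whereas the sequencing methods call them vehicle. No engineered allele is named for either group, the animals' age is not stated for these cells, and the passage is given as 2 in the labels and as 1 in the methods. It is not stated whether the libraries of a group came from separate mice or cultures, so the p-values measure the spread between these libraries, which may be technical. Silencing by siRNA lowers a transcript for a limited time and need not remove it.

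Ligands of the TNF superfamily are mostly membrane proteins that act as trimers, on the cell surface or after shedding, and bind receptors with cysteine-rich domains. Some receptors carry a death domain, through which adaptors such as FADD and TRADD reach caspase-8 or NF-kB. Others have no death domain and recruit TRAF adaptors, which activate NF-kB and MAP kinases, and a few are decoys that bind ligand without signalling. In bone, TNF favours osteoclast formation and restrains osteoblasts, and several members pass signals between stromal cells, macrophages and lymphocytes of the marrow.

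Of the targeted genes, Tet2 measured 2.57, 4.08 and 3.71 RPKM (reads on a gene, scaled for gene length and sequencing depth) without silencing and 0.358, 0.238 and 0.202 RPKM with it, and passed the test below (adjusted p = 2.88e-05). Tet1 was near the floor in both groups, at 0.032 to 0.098 RPKM in control and at most 0.01 RPKM after siRNA, too low to be tested. The labelled cell type was checked against marker lists. Stromal collagen genes were abundant in control, and Cxcl12, Postn, Pdgfrb, Eng, Vcam1 and Pdgfra had control means of 38.9, 36.5, 30.2, 23.8, 16.9 and 9.92 RPKM. Thy1 and Lepr did not exceed 0.146 and 0.083 RPKM in any library, and Nt5e had means of 0.911 RPKM in control and 0.639 RPKM after siRNA. Macrophage genes were abundant in both groups, with Lyz2 at a mean of 4439 RPKM in control and 11321 RPKM after siRNA. Control means of Cd68, Csf1r, Msr1, Mrc1, Itgam and Ptprc were 875, 499, 292, 170, 97.2 and 52.6 RPKM. Ptprc was at 53.0 RPKM after siRNA, and the lowest control mean of the macrophage list was that of Cd163, at 5.71 RPKM. The cultures therefore held macrophage transcripts beside stromal ones, and in such bulk RNA fewer cells of a type and less RNA per cell cannot be told apart. The depth, estimated from the spacing of low values, was between 32400000 and 38600000 reads per library. Across the genes tested, r within a group was 0.992 to 0.997, which does not show how single genes vary. Replicate 3 differed from the others in some markers. Col1a1 was at 655 RPKM in control replicate 3 and at 416 and 394 RPKM in control replicates 1 and 2. After siRNA it was at 104 RPKM in replicate 3 and at 48.4 and 64.2 RPKM in replicates 1 and 2.

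The TET enzymes act on methylated CpG dinucleotides, and the promoter regions of members with large changes on the log2(RPKM + 1) scale are shown for their CpG content. Of the 28 members, 22 had an entry among the RefSeq promoters of GRCm38.p6, in 26 windows. Below are the 250 bases upstream of the RefSeq start of the 4 called members with the largest change on that scale that had an entry, written 5′ to 3′ on the gene's strand with CpG dinucleotides in capitals. The windows lie at chr17:23677450-23677699 on the minus strand (Tnfrsf12a), chr17:43016305-43016554 on the plus strand (Tnfrsf21), chr4:145246871-145247120 on the minus strand (Tnfrsf1b) and chr11:69685555-69685804 on the minus strand (Tnfsf13, whose window lies mostly inside the gene as GENCODE M21 draws it).
Tnfrsf12a: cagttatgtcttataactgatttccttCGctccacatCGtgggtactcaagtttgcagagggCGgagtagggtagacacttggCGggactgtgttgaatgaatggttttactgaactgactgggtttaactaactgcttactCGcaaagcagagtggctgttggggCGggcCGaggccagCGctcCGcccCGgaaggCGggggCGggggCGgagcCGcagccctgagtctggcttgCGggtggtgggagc
Tnfrsf21: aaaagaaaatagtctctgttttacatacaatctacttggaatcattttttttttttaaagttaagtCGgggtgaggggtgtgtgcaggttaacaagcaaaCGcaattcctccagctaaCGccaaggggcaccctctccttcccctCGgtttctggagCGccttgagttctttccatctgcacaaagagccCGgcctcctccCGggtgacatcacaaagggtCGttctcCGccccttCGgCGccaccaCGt
Tnfrsf1b: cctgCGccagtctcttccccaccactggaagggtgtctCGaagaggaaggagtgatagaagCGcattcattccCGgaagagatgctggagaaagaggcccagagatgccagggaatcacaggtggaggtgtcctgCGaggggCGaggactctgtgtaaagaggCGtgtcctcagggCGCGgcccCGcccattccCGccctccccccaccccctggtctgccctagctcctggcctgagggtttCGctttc
Tnfsf13: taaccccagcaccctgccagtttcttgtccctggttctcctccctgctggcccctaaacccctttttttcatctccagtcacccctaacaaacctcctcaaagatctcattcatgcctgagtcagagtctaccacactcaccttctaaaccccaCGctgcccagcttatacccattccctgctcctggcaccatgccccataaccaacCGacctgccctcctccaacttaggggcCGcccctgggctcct
Tnfrsf12a, the one of these that fell, had 15 CpG dinucleotides in its window, Tnfrsf21 and Tnfrsf1b, which rose, had 12 each, and Tnfsf13, which rose, had 3. Tnfrsf23 and Tnfsf10, which fell and came just behind Tnfsf13 on this scale, had 8 and 6, and Tnfsf10 changed more than the 4 shown when measured as a ratio of RPKM. Over all 32851 promoters of the table the median was 6, with quartiles of 2 and 16, and over the 26 member windows it was 7. The NF-kB core GGGNNNNNCC was found on either strand in 13 of the 26 member windows and in 45.8% of all promoters. An interferon-response core, GAAANNGAAA, was found in 4 of the 26 and in 3.0% of all, and matches of the 2 motifs can overlap only in part. Among the 4 windows printed, Tnfrsf1b held both, Tnfrsf12a and Tnfsf13 held the NF-kB core only, and Tnfrsf21 held neither. A match is a description of letters, and DNA methylation was not measured in these libraries.

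Of the 28 members, 13 reached a mean of 1 RPKM in at least 1 group and 15 did not. The difference between the groups was tested with limma on log2(RPKM + 1) in the 20 members whose mean over the 6 libraries was at least 0.1 RPKM, with the Benjamini-Hochberg adjustment over all 13266 genes tested. At an adjusted p under 0.05, 5 members were higher after Tet1/Tet2 siRNA, where 14.7% of all genes tested were, and 6 were lower, where 29.8% of all genes tested were. The other 9 did not pass. The median log2 fold change of the tested members was -0.09, as was that of all genes tested. At the cut-offs named in the study, a fold change over 2 (taken here on RPKM + 1) at an unadjusted p under 0.05, 3 members were altered, Tnfrsf10b, Tnfrsf12a and Tnfsf9. All 3 were lower, and 5.63% of all genes tested were lower at these cut-offs. With a pseudocount of 0.1 or 0.01 RPKM in place of 1 there were 4 altered members, Tnfsf10 being added. In 6 tested members every siRNA library lay below every control library (35.9% of all genes tested), and in 5 every siRNA library lay above (19.8% of all). The counts of members lower at an adjusted p under 0.05 and of members lower without overlap are near the shares of all genes in that direction. The counts of higher members and of altered members rest on 5 and 3 genes and were not tested against the shares of all genes. Nothing particular to the superfamily is read from any of these counts.

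Macrophage and stromal marker genes moved in the same comparison as the members. Of 12 macrophage markers 11 were in the table, and 7 rose, 3 fell and 1 did not pass. Their summed RPKM was 5644 to 7292 in control and 12414 to 15308 after siRNA, most of it Lyz2, and Fcgr1 fell from a mean of 109 to 27.8 RPKM. Of 12 stromal markers 10 were tested, and 8 fell, Vcam1 rose and Nt5e did not pass. Their summed RPKM was 1003.5 to 1542 in control and 190.1 to 322 after siRNA, with Col1a1 at a mean of 488 and 72.1 RPKM. Such values stand beside every rise and fall of a member below, that of Tnfsf12 and Tnfrsf12a included, and their part in those results was not tested.

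**Figure D1:**
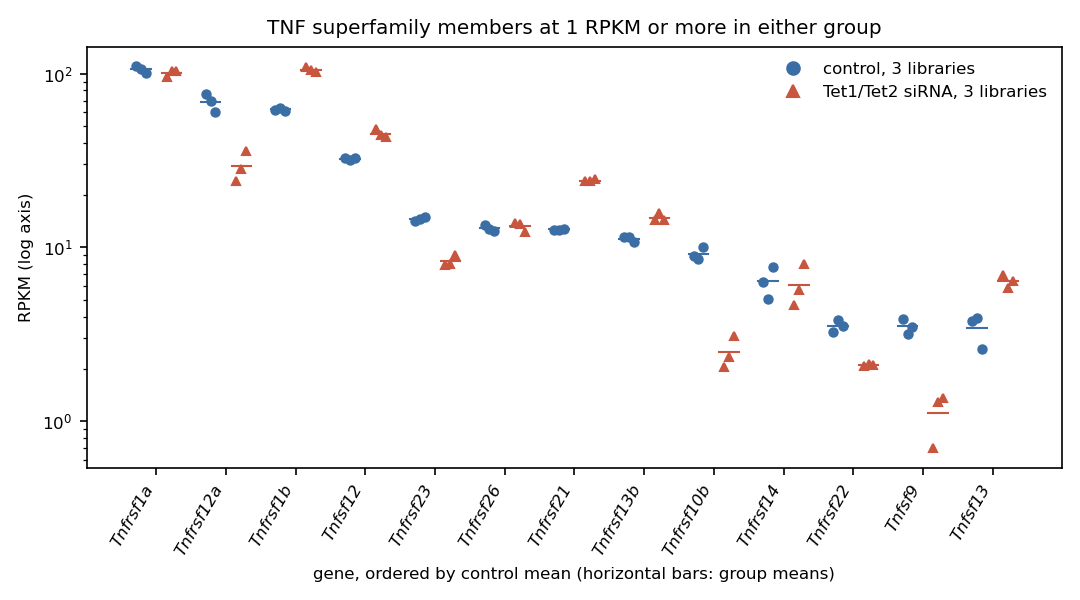
The plot gives RPKM on a log axis for the 13 members at a mean of 1 RPKM or more in either group, ordered by control mean, with circles for the 3 control libraries, triangles for the 3 Tet1/Tet2 siRNA libraries and horizontal bars for group means. The points of the 2 groups are fully separated for 10 of the 13 genes, 5 higher after siRNA (19.8% of all genes tested) and 5 lower (35.9% of all), and those of Tnfrsf1a, Tnfrsf26 and Tnfrsf14 overlap.

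Of the receptors of TNF itself, Tnfrsf1b rose and Tnfrsf1a, the most abundant member in control, did not pass the test. Tnfrsf1a encodes TNFR1, the death-domain receptor found on most cells. Its control libraries gave 110.5, 107 and 101 RPKM and its siRNA libraries 95.9, 104 and 103 RPKM. These ranges overlapped, and the log2 fold change of -0.07 (95% interval -0.22 to 0.07, n = 3 per group, limma adjusted p = 0.384) did not pass the test. Tnfrsf1b encodes TNFR2, which has no death domain, recruits TRAF2 and is found mainly on immune and endothelial cells. For this gene 62.1, 63.5 and 61.3 RPKM were found in control and 109.6, 105 and 102 RPKM after siRNA. All 3 siRNA libraries were far above the control ones, by 1.69-fold in RPKM and by 0.75 ± 0.06 (SE) on the log2 scale, with an adjusted p of 3.04e-05. Within each library the ratio of Tnfrsf1b to Tnfrsf1a was 0.562, 0.594 and 0.606 in control and 1.14, 1.01 and 0.985 after siRNA. The balance of the receptors thus went from an excess of Tnfrsf1a to about equal RPKM.

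Tnfrsf21 encodes DR6, a death-domain receptor best known from neurons and lymphocytes. It had the largest increase of the tested members, from 12.7, 12.7 and 12.8 RPKM in control to 24.0, 24.0 and 24.6 RPKM after siRNA. The libraries of each group lay within a narrow band, and the mean was 1.91-fold higher (log2 fold change 0.88 ± 0.06 SE, adjusted p = 1.77e-05).

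TWEAK and its receptor moved in opposite directions. Tnfsf12 encodes TWEAK, a ligand made largely by monocytes and macrophages. It was the most abundant ligand, at 32.7, 32.0 and 32.6 RPKM in control and 47.7, 44.5 and 43.4 RPKM after siRNA. It was higher in all 3 siRNA libraries, by 0.46 ± 0.06 on the log2 scale (adjusted p = 0.000403). Tnfrsf12a encodes Fn14, the small TWEAK receptor that growth factors induce in fibroblasts and other mesenchymal cells. The control libraries gave 75.9, 69.8 and 60.4 RPKM for it and the siRNA libraries 24.1, 28.3 and 36.0 RPKM. The groups did not overlap, the control mean was 2.33-fold the siRNA mean, and the log2 fold change was -1.21 ± 0.14 (adjusted p = 0.000255). The ratio of Tnfsf12 to Tnfrsf12a within a library was 0.431, 0.458 and 0.540 in control and 1.98, 1.57 and 1.21 after siRNA. Ligand RPKM was thus below receptor RPKM in every control library and above it in every siRNA library, a 3.28-fold change of the ratio.

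APRIL and its receptor TACI rose, and the other genes of the APRIL and BAFF group were near or under the limit of the test. Tnfsf13 encodes APRIL, a ligand that supports plasma cells and is made by myeloid cells. It gave 3.76, 3.92 and 2.61 RPKM in control and 6.90, 5.85 and 6.38 RPKM after siRNA. Control replicate 3 was the lowest library, the groups did not overlap, and the log2 fold change was 0.75 ± 0.13 (adjusted p = 0.00231). Tnfrsf13b encodes TACI, a receptor of both APRIL and BAFF that is best known from B cells and also occurs on macrophages. It gave 11.5, 11.5 and 10.7 RPKM in control and 14.4, 15.7 and 14.3 RPKM after siRNA, a log2 fold change of 0.37 ± 0.07 (adjusted p = 0.0038). All 3 siRNA libraries were above the control ones. Tnfsf13b, which encodes BAFF, the B-cell survival factor, stayed under 0.4 RPKM in every library and did not pass the test (log2 fold change -0.10, interval -0.26 to 0.05, adjusted p = 0.246). The B-cell receptors Tnfrsf13c (BAFF receptor) and Tnfrsf17 (BCMA) were at or near the lowest listed value of 0.001 RPKM, at most 0.027 and 0.024 RPKM in any library.

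Of 8 B-cell markers, 2 were high enough to be tested, Cd22 (mean of 3.65 RPKM in control and 5.58 RPKM after siRNA) and Cd79b (0.533 and 1.14 RPKM), and both rose. Pax5, a transcription factor that defines B cells, did not exceed 0.024 RPKM in any library. The summed RPKM of the list was 3.94 to 4.96 in control and 6.16 to 7.11 after siRNA, and its part in the rise of Tnfrsf13b was not tested.

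Tnfsf12 and Tnfsf13 are neighbours on chromosome 11 of GRCm38 (69686250 to 69695849 and 69682846 to 69685784, minus strand), and GENCODE M21 also annotates a read-through gene, Tnfsfm13, that spans both (69682577 to 69696098). Tnfsfm13 has a row of its own, with a mean of 18.7 RPKM in control and 32.9 RPKM after siRNA (log2 fold change 0.79 ± 0.11, adjusted p = 0.000745). Of the 50-base stretches in the transcripts of Tnfsf12, 46.8% also occur in Tnfsfm13, and for Tnfsf13 57.3% do. How reads were divided among the 3 genes is not given in the sources used here, so the levels of TWEAK and APRIL are uncertain, although all 3 rows rose. The antisense gene Tnfsf13os was at the lowest listed value in all 6 libraries.

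TRAIL and its receptors fell, and the neighbouring receptor Tnfrsf26 did not pass the test. Tnfsf10 encodes TRAIL, a ligand that triggers apoptosis through death receptors and that interferons induce. It was a low transcript, at 0.727, 0.820 and 0.977 RPKM in control and 0.094, 0.136 and 0.068 RPKM after siRNA, or roughly 136, 136 and 158 reads against 18, 26 and 12. The groups were well apart, with a control mean 8.47-fold the siRNA mean, while on the log2(RPKM + 1) scale, which understates changes of low genes, the difference was -0.74 ± 0.07 (adjusted p = 0.000109). Its siRNA mean was under the 0.1 RPKM that the filter asked of all 6 libraries together, so it was tested through its control level.

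Tnfrsf10b, on chromosome 14, encodes the mouse TRAIL death receptor, DR5, a known target of p53. On the log2(RPKM + 1) scale it fell the most of all tested members, though Tnfsf10 fell more as a ratio of RPKM and with smaller pseudocounts. It went from 8.97, 8.55 and 10.0 RPKM in control to 2.04, 2.35 and 3.08 RPKM after siRNA. The highest siRNA library was well below the lowest control library, with a log2 fold change of -1.55 ± 0.12 and an adjusted p of 3.96e-05. Tnfrsf22 and Tnfrsf23 encode decoy receptors that bind TRAIL without a death domain, and Tnfrsf26 an orphan receptor of the same cluster on chromosome 7 (143607659 to 143628722 for Tnfrsf26, 143634806 to 143649661 for Tnfrsf22, 143665809 to 143685872 for Tnfrsf23, all on the minus strand). Tnfrsf23 gave 14.2, 14.5 and 15.1 RPKM in control and 7.93, 8.05 and 8.98 RPKM after siRNA, a log2 fold change of -0.74 ± 0.08 (adjusted p = 0.000132). Tnfrsf22 gave 3.27, 3.81 and 3.51 RPKM in control and 2.08, 2.13 and 2.09 RPKM after siRNA, a log2 fold change of -0.54 ± 0.08 (adjusted p = 0.0011). In both decoys the groups did not overlap. By contrast, Tnfrsf26 gave 13.5, 12.8 and 12.4 RPKM in control and 13.9, 13.6 and 12.2 RPKM after siRNA. Those ranges overlapped, and its log2 fold change of 0.03 (interval -0.14 to 0.21, adjusted p = 0.735) did not pass.

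The 3 clustered receptors were also compared within each library. The ratio of Tnfrsf26 to Tnfrsf23 was 0.949, 0.879 and 0.825 in control and 1.75, 1.69 and 1.36 after siRNA, without overlap. The ratio of Tnfrsf22 to Tnfrsf23 was 0.231, 0.262 and 0.233 in control and 0.262, 0.265 and 0.233 after siRNA, and here the groups overlapped. The decoys are near-identical in part, with 17.3% of the 50-base stretches of Tnfrsf22 found in Tnfrsf23 and 18.0% the other way, whereas Tnfrsf26 shared none with either, so reads may have been split between Tnfrsf22 and Tnfrsf23. Between the death receptor and the decoy, the ratio of Tnfrsf10b to Tnfrsf23 was 0.632, 0.588 and 0.665 in control and 0.257, 0.293 and 0.342 after siRNA, without overlap.

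Over 7 such ratios, 3 libraries against 3 allow no exact permutation p under 0.1. A two-sided exact permutation test gave this smallest p of 0.1 for 6 ratios (0.117 after adjustment over the 7) and 0.3 for Tnfrsf22 to Tnfrsf23, so none passed 0.05. The remaining ratios were Tnfsf13 to Tnfrsf13b, with a mean of 0.304 in control and 0.433 after siRNA, and Tnfsf13 to Tnfsf12, with 0.106 and 0.141. The log2 difference of the last ratio was 0.44 with all libraries and 0.25 without control replicate 3, in which Tnfsf13 was lowest.

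**Figure D2:**
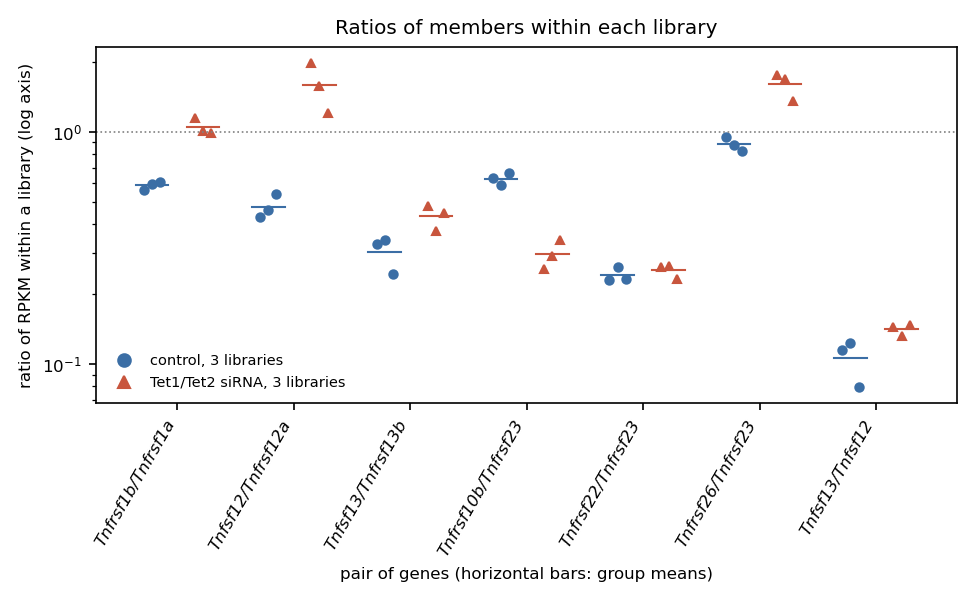
The plot gives, on a log axis, the ratio of the RPKM of 2 members within each library, with circles for the 3 control libraries, triangles for the 3 siRNA libraries, bars for group means and a dotted line at 1. Tnfsf12 to Tnfrsf12a lies below the dotted line in all 3 control libraries and above it in all 3 siRNA libraries, and Tnfrsf22 to Tnfrsf23 overlaps.

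Tnfsf9 encodes 4-1BBL, a costimulatory ligand for T cells that activated macrophages and other antigen-presenting cells carry. It gave 3.85, 3.17 and 3.49 RPKM in control and 0.696, 1.29 and 1.35 RPKM after siRNA. Every siRNA library was under every control library, and the log2 fold change was -1.11 ± 0.14 (adjusted p = 0.000336). Without siRNA replicate 1, its lowest library, the change was -0.96, so that on the log2(RPKM + 1) scale it no longer exceeded a fold change of 2. Its receptor Tnfrsf9 (4-1BB) stayed between 0.161 and 0.415 RPKM in control and between 0.037 and 0.198 RPKM after siRNA, groups that overlapped (log2 fold change -0.18, interval -0.39 to 0.02, adjusted p = 0.133).

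Tnfrsf14 encodes HVEM, which binds LIGHT and the inhibitory receptor BTLA. It varied more between libraries of a group than between groups, at 6.34, 5.02 and 7.74 RPKM in control and 4.66, 5.68 and 7.99 RPKM after siRNA (log2 fold change -0.06, interval -0.50 to 0.37, adjusted p = 0.814). Its ligand Tnfsf14 (LIGHT) gave 0.385, 0.305 and 0.099 RPKM in control and 0.097, 0.083 and 0.121 RPKM after siRNA, and did not pass (-0.19, adjusted p = 0.114). Control replicate 3 decides that value, since without it Tnfsf14 was lower with a log2 fold change of -0.29 and an adjusted p of 0.00959.

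**Figure D3:**
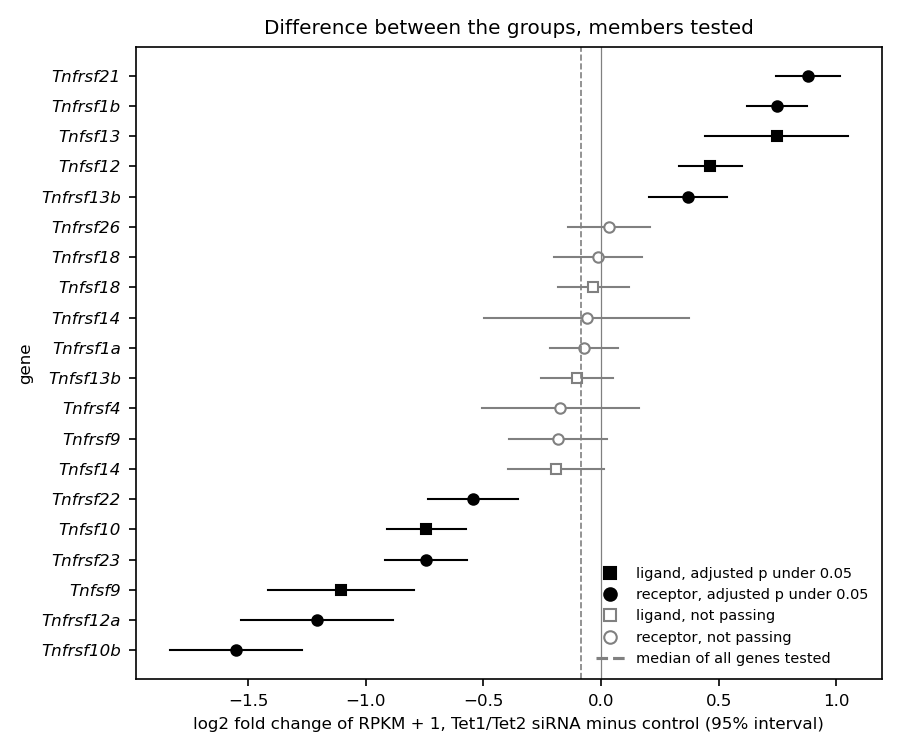
The plot gives the log2 fold change of RPKM + 1, siRNA minus control, with its 95% interval for the 20 members tested, as squares for ligands and circles for receptors, filled where the adjusted p was under 0.05, and a dashed line at the median of all genes tested. Filled symbols are on both sides, from 0.88 for Tnfrsf21 to -1.55 for Tnfrsf10b. To the right lie 5, where 14.7% of all genes tested were higher, and to the left 6, where 29.8% were lower. Of the 6, Tnfsf10 was tested through its control level.

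The members that lymphocytes use for costimulation were mostly near the limit of detection. Tnfrsf4 (OX40) gave 0.438, 0.234 and 0.563 RPKM in control and 0.091, 0.135 and 0.561 RPKM after siRNA, and did not pass (-0.17, interval -0.51 to 0.16, adjusted p = 0.362). The high siRNA replicate 3 decides this, since without it the log2 fold change was -0.34 with an adjusted p of 0.0391. Tnfrsf18 (GITR) lay between 0.205 and 0.397 RPKM over all libraries and its ligand Tnfsf18 between 0.05 and 0.175 RPKM, with adjusted p of 0.915 and 0.708. At this depth, and with the longest annotated transcript as gene length, 1 read was worth 0.0218 to 0.0260 RPKM for Tnfrsf18. Its levels then stand for roughly 8 to 18 reads in a library, those of Tnfsf18 for 4 to 12.

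The 8 members under the filter were Tnfrsf13c and Tnfrsf17, described above, and 6 others. Tnfsf4, the OX40 ligand, was at the lowest listed value in all 3 control libraries and at 0.113, 0.032 and 0.070 RPKM after siRNA, roughly 8, 2 and 5 reads. Tnfrsf8 (CD30) gave 0.034, 0.019 and 0.020 RPKM in control and 0.214, 0.049 and 0.215 RPKM after siRNA, and these 2 were the untested members whose siRNA libraries all lay above the control ones. Tnfrsf19 (TROY), a receptor of mesenchymal and epithelial progenitors, gave 0.136, 0.111 and 0.221 RPKM in control and 0.018, 0.001 and 0.046 RPKM after siRNA. Tnfrsf25 (DR3) gave 0.051 to 0.082 RPKM in control and at most 0.036 RPKM after siRNA, so the siRNA libraries of both were below all control libraries. How many of all genes under the filter separate in this way was not counted, and nothing particular to the members is read from it. Tnfsf8 (CD30 ligand) and Tnfsf15 (TL1A) overlapped between the groups, at 0.022 to 0.212 and 0.053 to 0.135 RPKM over all libraries. In a limma fit with no filter none of the 8 passed, with the lowest adjusted p at 0.0859 for Tnfrsf19 and 0.157 for Tnfsf4, and 3 of them, Tnfrsf19, Tnfrsf25 and Tnfsf4, had an unadjusted p under 0.05. In the fit without siRNA replicate 2, Tnfrsf8 reached the filter and passed (0.25, adjusted p = 0.0251). Without control replicate 1, 2 or 3 it reached the filter and did not pass (adjusted p of 0.13, 0.167 and 0.13). In each of these fits it was tested only through its siRNA level, its control libraries being at 0.034 RPKM or less, and no rise is read from that call. The values of the 8 genes rest on an estimated 29 reads or fewer in a library.

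Of 11 T and NK cell markers, 2 could be tested, Cd4, which rose from a mean of 2.56 to 8.06 RPKM, and Lck, which did not pass. Cd3g and Ncr1 were at the lowest listed value in all 6 libraries and Cd3e and Cd3d in 5 of 6. The summed RPKM of the list was 2.71 to 3.05 in control and 7.87 to 9.04 after siRNA, nearly all of it Cd4, which macrophages can also express. Dendritic, endothelial, neutrophil and mast cell lists summed to 7.25 to 9.10, 4.39 to 5.27, 3.38 to 3.51 and 0.362 to 0.714 RPKM in control and to 9.49 to 10.6, 7.74 to 8.24, 9.35 to 16.2 and 0.283 to 0.499 RPKM after siRNA. Of these genes, S100a8 rose from a mean of 1.95 to 12.7 RPKM, Vwf from 1.93 to 6.10 RPKM and Itgax from 7.51 to 9.57 RPKM. Camp fell from a mean of 1.45 to 0.058 RPKM, with 2 of 3 siRNA libraries at the lowest listed value. It was thus tested through its control level. Kdr fell from a mean of 1.58 to 0.604 RPKM. Other dendritic markers were lower in every siRNA library, Zbtb46 at means of 0.483 and 0.301 RPKM (limma adjusted p = 0.0508, not passing) and Xcr1, under the filter, at 0.0877 and 0.0303 RPKM. Of the tested endothelial markers 3 rose and 2 fell. Ccr7, S100a9 and Fcer1a were at the lowest listed value throughout, and Tek did not exceed 0.027 RPKM.

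**Figure D4:**
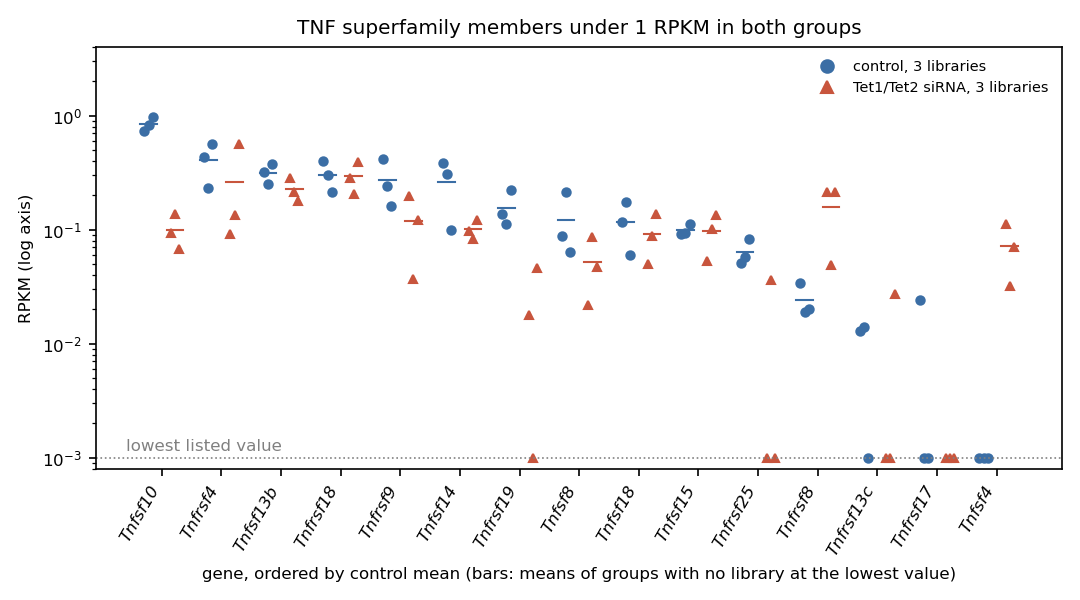
The plot gives RPKM on a log axis for the 15 members under 1 RPKM in both groups, with circles for the 3 control libraries, triangles for the 3 siRNA libraries, bars for the means of groups with no library at the lowest value, and a dotted line at the lowest listed value of 0.001. Tnfsf10 is the clearest separation, from 0.727 RPKM or more in control to 0.136 RPKM or less after siRNA, and Tnfsf4 sits on the dotted line in all 3 control libraries.

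Summed over the 18 receptors, the superfamily took 320.3, 310.0 and 296 RPKM in control and 299, 309 and 315 RPKM after siRNA, with means of 309 ± 12.0 and 308 ± 8.07 (SD, n = 3), a difference within the spread of the libraries. The genes that made up the sum differed more, in shares that were not tested. Tnfrsf1a and Tnfrsf1b made up 54.5% ± 0.581 of it in control and 67.0% ± 1.92 after siRNA, and Tnfrsf12a 22.2% ± 1.67 and 9.54% ± 1.71. The summed ligands were 42.0, 41.0 and 40.4 RPKM in control and 56.0, 52.4 and 51.9 RPKM after siRNA. Tnfsf12 alone was 78.9% ± 1.61 of the ligand sum in control and 84.6% ± 0.829 after siRNA, so the sum follows that gene.

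A list of 59 further genes of the pathway showed where the rest of the signalling chain stood. Of these 52 were tested, 7 were higher, 19 were lower and 26 did not pass, with a median log2 fold change of -0.12 beside -0.09 for all genes tested. Over all genes tested 14.7% were higher and 29.8% lower, and the counts of the whole list are near those shares. Among the superfamily genes that carry other symbols, 7 of 8 tested fell and none rose (Eda with a siRNA mean of 0.0827 RPKM, so tested through its control level), among the caspases and apoptosis regulators 6 of 10 fell and none rose, and among the TRAF and death-domain adaptors 4 of 13 fell and 2 rose. The kinases and subunits of NF-kB were mixed, with 3 of 13 higher and 1 lower, and so were its inhibitors, with 2 of 8 higher and 1 lower. The counts of these groups were not tested against the shares of all genes. Scaling moved these counts, from 17 higher and 12 lower after quantile normalization to 4 higher and 19 lower after rescaling to equal sums, and no direction is given for the whole list.

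Tnf, the ligand that names the family, gave 7.88, 8.70 and 8.36 RPKM in control and 3.23, 3.65 and 4.47 RPKM after siRNA (log2 fold change -0.97 ± 0.11, adjusted p = 0.000213). It fell in the same libraries in which its receptor Tnfrsf1b rose. Cd40, the costimulatory receptor of antigen-presenting cells, fell from a mean of 3.41 ± 0.234 to 1.31 ± 0.303 RPKM (SD, n = 3, adjusted p = 0.000302). Fas, the death receptor of Fas ligand, fell from 5.32 ± 0.737 to 3.16 ± 0.269 RPKM (adjusted p = 0.00293). Ltbr, the lymphotoxin beta receptor of stromal and myeloid cells, went from 48.7 ± 2.44 to 42.8 ± 1.73 RPKM, and its call (adjusted p = 0.0468) was lost in 11 of 16 alternative settings, with adjusted p up to 0.281. The ligands Cd40lg and Cd70 were at the lowest listed value in all 6 libraries, and Fasl and Lta did not exceed 0.047 and 0.04 RPKM.

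Behind the receptors, 2 genes were past a fold change of 2 on the log2(RPKM + 1) scale, both lower. Traf4, a TRAF adaptor, gave 4.93, 4.41 and 4.86 RPKM in control and 1.00, 1.12 and 1.72 RPKM after siRNA (log2 fold change -1.34 ± 0.12, adjusted p = 8.23e-05). Mlkl, the pore-forming executioner of necroptosis, gave 38.3, 35.3 and 33.0 RPKM in control and 15.6, 15.0 and 15.9 RPKM after siRNA (-1.15 ± 0.07, adjusted p = 1.31e-05). Neither gene had overlapping groups. Traf2, the adaptor that TNFR2 recruits, had means of 7.61 ± 0.906 and 7.08 ± 0.854 RPKM and did not pass (adjusted p = 0.543), nor did Nfkb1, the p105 and p50 subunit of NF-kB, at 26.2 ± 1.56 and 24.6 ± 1.02 RPKM (adjusted p = 0.314). Casp8, the initiator caspase of death receptors, went from 47.8 ± 1.17 to 41.9 ± 1.67 RPKM (adjusted p = 0.0291), a call that was lost in 7 of 16 alternative settings, with adjusted p up to 0.294.

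**Figure D5:**
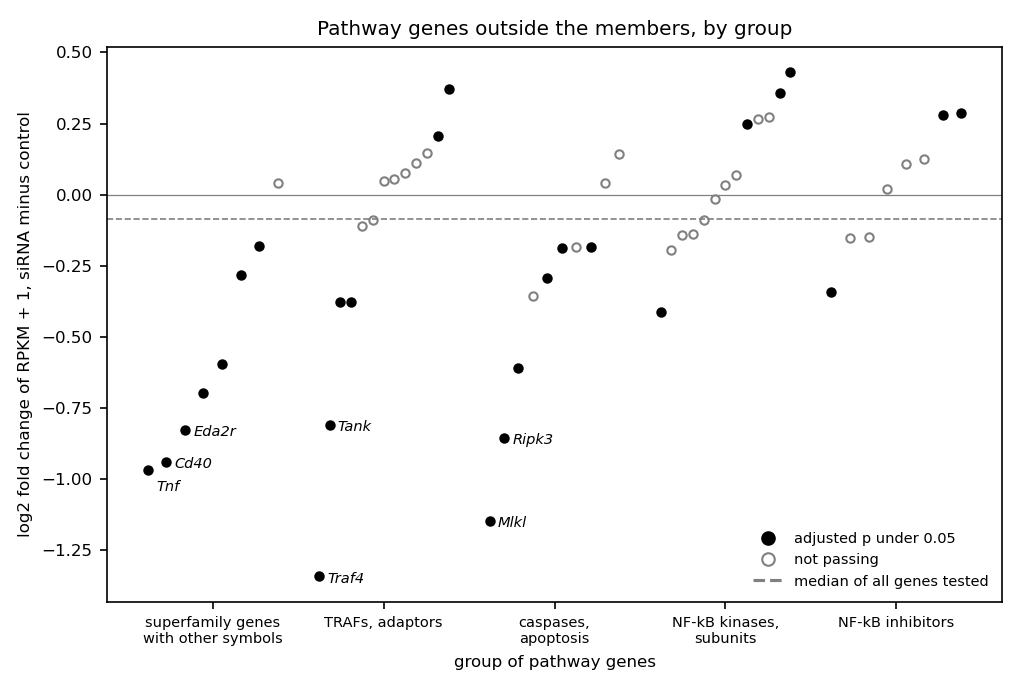
The plot gives the log2 fold change of RPKM + 1, siRNA minus control, of the 52 tested pathway genes in 5 groups, filled where the adjusted p was under 0.05, with a dashed line at the median of all genes tested. Traf4 and Mlkl lie lowest. The superfamily genes with other symbols are filled and below 0 in 7 of 8 cases, where 29.8% of all genes tested were lower. This count was not tested against that share. It includes Ltbr, whose call was lost in 11 of 16 alternative settings, and Eda, tested through its control level.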

How the data were processed

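RNA-seq of 6 libraries was examined, 3 control and 3 Tet1/Tet2 siRNA-treated. According to the paper's methods the authors trimmed adaptors, mapped paired-end reads to GRCm38 and estimated abundance with DNASTAR Lasergene, and they deposited 1 table of RPKM values (named FPKM in the methods). The annotation, strand setting and treatment of reads with several matches are not given in the sources used here, so values of similar or overlapping genes are uncertain. A column of the authors' own p-values was not used.

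A symbol listed repeatedly was represented by its row of highest mean. The 13266 genes averaging 0.1 RPKM or more were tested, two-sided, on log2(RPKM + 1) with limma 3.58.1 in R 4.3.3 (lmFit, eBayes with trend) and Benjamini-Hochberg adjustment. The script was tested on simulated data. Ratios of members within a library were compared with an exact permutation test. The ratios were not planned and use the same values as the calls of their members, so they add no support to those calls. The members and lists were chosen with earlier results of these data known. By the rule for names every member was accounted for, those called or at 1 RPKM or more with each library's value, and called pathway genes past a fold change of 2 on the log2(RPKM + 1) scale were named, as were Tnf, Fas, Cd40, Ltbr, Traf2, Casp8 and Nfkb1 whatever their values. Other genes named, such as markers, were picked after their values were seen.

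Depth is not in the table and was estimated with Python 3.11.15 from low values of genes for which GENCODE M21 has 1 transcript, of which 53.8% to 57.2% lay within 0.1 of a whole read (20% by chance at a fixed depth). It is an estimate, so no count test was run. Reads of a member were worked out from this depth and its longest GENCODE M21 transcript, and the gene lengths behind the RPKM values are not given. Sequences are from the RefSeq promoters of GRCm38.p6. Same-numbered libraries deviated together across genes (correlations of 0.149, 0.117 and 0.462), and an alternative fit took the numbers as pairs, although no source says what a number stands for. The other alternatives were pseudocounts of 0.1 and 0.01, other filters, 3 scalings, eBayes without trend, summed rows and each library left out.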

Additional observations from a re-analysis of the deposited data

How the results depend on the processing

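All 11 called members kept direction and call in every alternative that tested them. Counts of members ranged over 5 to 6 higher, 5 to 7 lower and 2 to 4 altered. Tnfsf10 joined the altered ones with pseudocounts of 0.1 and 0.01 and after rescaling to equal sums (TPM). Tnfrsf8, under the filter with all libraries, passed without siRNA replicate 2 (0.25, adjusted p = 0.0251), where only its siRNA level brought it over the filter. It did not pass without control replicate 1, 2 or 3 or with no filter (adjusted p of 0.13 to 0.27). The paired fit with the replicate block also gave 5 members higher and 6 lower, and 8 and 20 pathway genes, and among Tet2, the tested members and the 9 pathway genes given one by one it changed only the call of Ltbr (adjusted p = 0.0515).

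Of the pathway genes 7 were higher and 19 lower. The higher count was 4 with no filter, 17 after quantile normalization, 4 after TPM rescaling and 3 to 6 when a library was left out (4, 3 and 4 without siRNA replicates 1, 2 and 3). The lower count was 12 after quantile normalization and 14 to 18 when a library was left out. Over all genes the median log2 fold change went from -0.09 to 0.06 after quantile normalization and to -0.16 after TPM rescaling, and the lower share of all calls from 66.9% to 42.1% and 74.2% (55.9% after median ratio scaling). The cause was not tested. Fractions of an RPKM can rest on few reads, which limits most of the members under 1 RPKM. It limits Tnfsf10 less, with an estimated 136, 136 and 158 reads in control and 18, 26 and 12 after siRNA.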
